A study of Sus scrofa with 6 samples.

Results

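Lipocalins are small, mostly secreted proteins that fold into a barrel and carry a lipid, a steroid, retinol or an iron-binding molecule in its cup. In the kidney they are filtered and taken back by the proximal tubule through the endocytic receptors megalin (LRP2) and cubilin (CUBN), and several are also made by kidney cells. LCN2, also called NGAL, is the family member best known as a marker of acute tubular injury. The 6 genes described here are APOD, LCN2, RBP4, PTGDS, APOM and ORM1. They are 6 of the 5274 genes with a symbol on the array, and all probes to which the array design gave one of these names are shown, 11 of 43603. The genes were selected on the measured differences between ischemia and control in these same arrays, so those differences are given as a description, with no test.

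Renal cortex RNA of Large White pigs aged 3 months was measured on 6 one-colour porcine Agilent arrays, 1 kidney per array. The 3 ischemia kidneys were clamped and held at 37 °C for 60 min, rinsed through with chilled UW preservation solution, stored at 4 °C for 24 h and then sampled and frozen. The 3 control kidneys were removed and frozen at once, and all kidneys came from different pigs. Clamping, warm time, flush and cold storage were applied together and cannot be told apart, and blood flow was not restored in any kidney. Each of the 3 slides carried 1 array of each group, with ischemia always at position 3 and control always at position 4, so the effect of position cannot be told apart from that of the group. Slide 1 held ischemia kidney 2 and control kidney 1, slide 2 held ischemia kidney 3 and control kidney 2, and slide 3 held ischemia kidney 1 and control kidney 3.

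Between 52.6% and 61.4% of the spots on an array were well above background, and no spot was saturated. The labelled tissue was checked with proximal tubule markers, and all 11 tested were well above background on every array. Their summed level was 620.6 to 650.2 times the 75th percentile of the array in ischemia kidneys and 698.6 to 1055 times in control kidneys. On their brightest probes all 11 had a lower mean in ischemia kidneys. The 2 SLC34A1 probes gave ischemia minus control differences of -0.64 and 0.35 (log2). RNA was taken from whole cortex, in which fewer cells of a type and less RNA per cell cannot be told apart. Of 25013 probes tested over the whole array, 1 passed a limma adjusted p of 0.05 (0.004%), and it was not a lipocalin probe. At an unadjusted p under 0.05, 2.99% of probes were higher and 3.3% lower. Both APOD probes were among the higher ones, from which nothing is read because this contrast chose the gene. Probe levels below are log2 signals relative to the 75th percentile of their own array, so that 0 is a fairly bright spot, and each level is compared only with the same probe on other arrays.

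The probes are 60 bases long and their sequences are printed as in the scanner files. What the probes of a gene can say together depends on the sequence they share. The pair of LCN2 probes carried one and the same sequence at separate spots, which makes them a repeat measurement of 1 RNA stretch. No part of it is marked, because the whole sequence is shared.
LCN2 A_72_P000426: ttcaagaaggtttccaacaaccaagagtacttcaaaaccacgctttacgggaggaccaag
LCN2 A_72_P563459: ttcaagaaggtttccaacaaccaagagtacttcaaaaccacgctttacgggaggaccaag
The pair of APOD probes overlapped by a run of 41 bases. The end of that run is shown with 30 bases of each probe, and capitals mark the unbroken shared run. After a differing base the letters match again up to the end of A_72_P720378.
APOD A_72_P720378: GACTGACAAGTAAAGATGCAATTtgggagt
APOD A_72_P747190: TGACAAGTAAAGATGCAATTggggagttct
The 3 RBP4 probes and both APOM probes shared no run of 20 bases with any other probe on the array, and neither did the PTGDS and ORM1 probes. The RBP4 probe that the design places first on the transcript and the RBP4 probe used to represent the gene are shown because they were the dimmest and the brightest of the gene yet shared the same high array.
RBP4 A_72_P531116: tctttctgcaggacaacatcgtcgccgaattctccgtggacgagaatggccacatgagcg
RBP4 A_72_P146486: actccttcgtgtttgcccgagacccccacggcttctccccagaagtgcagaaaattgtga
The later of the APOM probes held the letters AATAAA, shown in capitals within 30 of its bases. These letters were found on the printed strand of 9.60% and on the other strand of 4.17% of all probes on the array.
APOM A_72_P303029: ccttacaagagtAATAAAgataatttgtca

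APOD was the lipocalin with the higher signal in every ischemia kidney. It encodes apolipoprotein D, a carrier of arachidonic acid, progesterone and other small lipids that is known in other mammals to increase in stressed and growth-arrested cells. Probe A_72_P747190, the brighter of the pair, read 0.30, -1.04 and 0.31 in ischemia kidneys 1, 2 and 3, against -2.45, -2.14 and -2.44 in control kidneys 1, 2 and 3. All ischemia arrays lay above all control arrays, and the ischemia kidneys were far more spread than the control kidneys because kidney 2 lay below the other two. The means were -0.14 ± 0.78 in ischemia and -2.34 ± 0.18 in control kidneys (SD, n = 3 each), a difference of 2.20 ± 0.38 (SE, log2) or 4.59-fold. Probe A_72_P720378 read 0.14, -1.20 and 0.21 in ischemia kidneys, against -2.67, -2.42 and -2.60 in control kidneys. It repeated the order of the arrays, with a difference of 2.28 ± 0.39 or 4.86-fold. Since the probes share most of their letters, they are not independent of each other.

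The difference in APOD was present on every slide. Within slides 1, 2 and 3 it was 1.40, 2.45 and 2.74 for A_72_P747190, so the smallest value came from the slide with ischemia kidney 2. Leaving out one array at a time gave 1.97 to 2.65 for this probe. Over the whole array, all ischemia values were above all control values for 5.92% of probes, a share against which the APOD pair is not read because this contrast chose the gene.

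A further probe, outside the rule, bears the Ensembl description of apolipoprotein D but no gene symbol. The design places this probe, A_72_P371558, on another transcript record, and it shares no run of 20 bases with any other probe of the array. It read -1.39, -2.96 and -1.51 in ischemia kidneys, against -5.88, -4.41 and -5.08 in control kidneys. It was well above background on all 3 ischemia arrays and on 0 of the 3 control arrays, and ischemia kidney 2 was again the lowest of its group. With control values raised to the lowest signal that counts as well above background, it was 4.72-fold higher in ischemia kidneys, given here as a bound. The measured means were -1.95 in ischemia and -5.12 in control kidneys. The plain difference within slides 1, 2 and 3 was 2.92, 2.90 and 3.69, and rests on control values not well above background. The probe entered the fit only through the group in which it is high, so its direction is not read as support. Its plain difference of 3.17 ± 0.52 was 0.93 with normexp background correction and quantile normalization together (normexp and quantile below). It was 3.48 with quantile normalization alone and 1.23 in the authors' deposited table. Normexp added an offset of 50 to every signal, which narrows log2 differences between dim signals. The control signals of this probe were 4.35 to 12.65 before scaling.

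**Figure D1:**
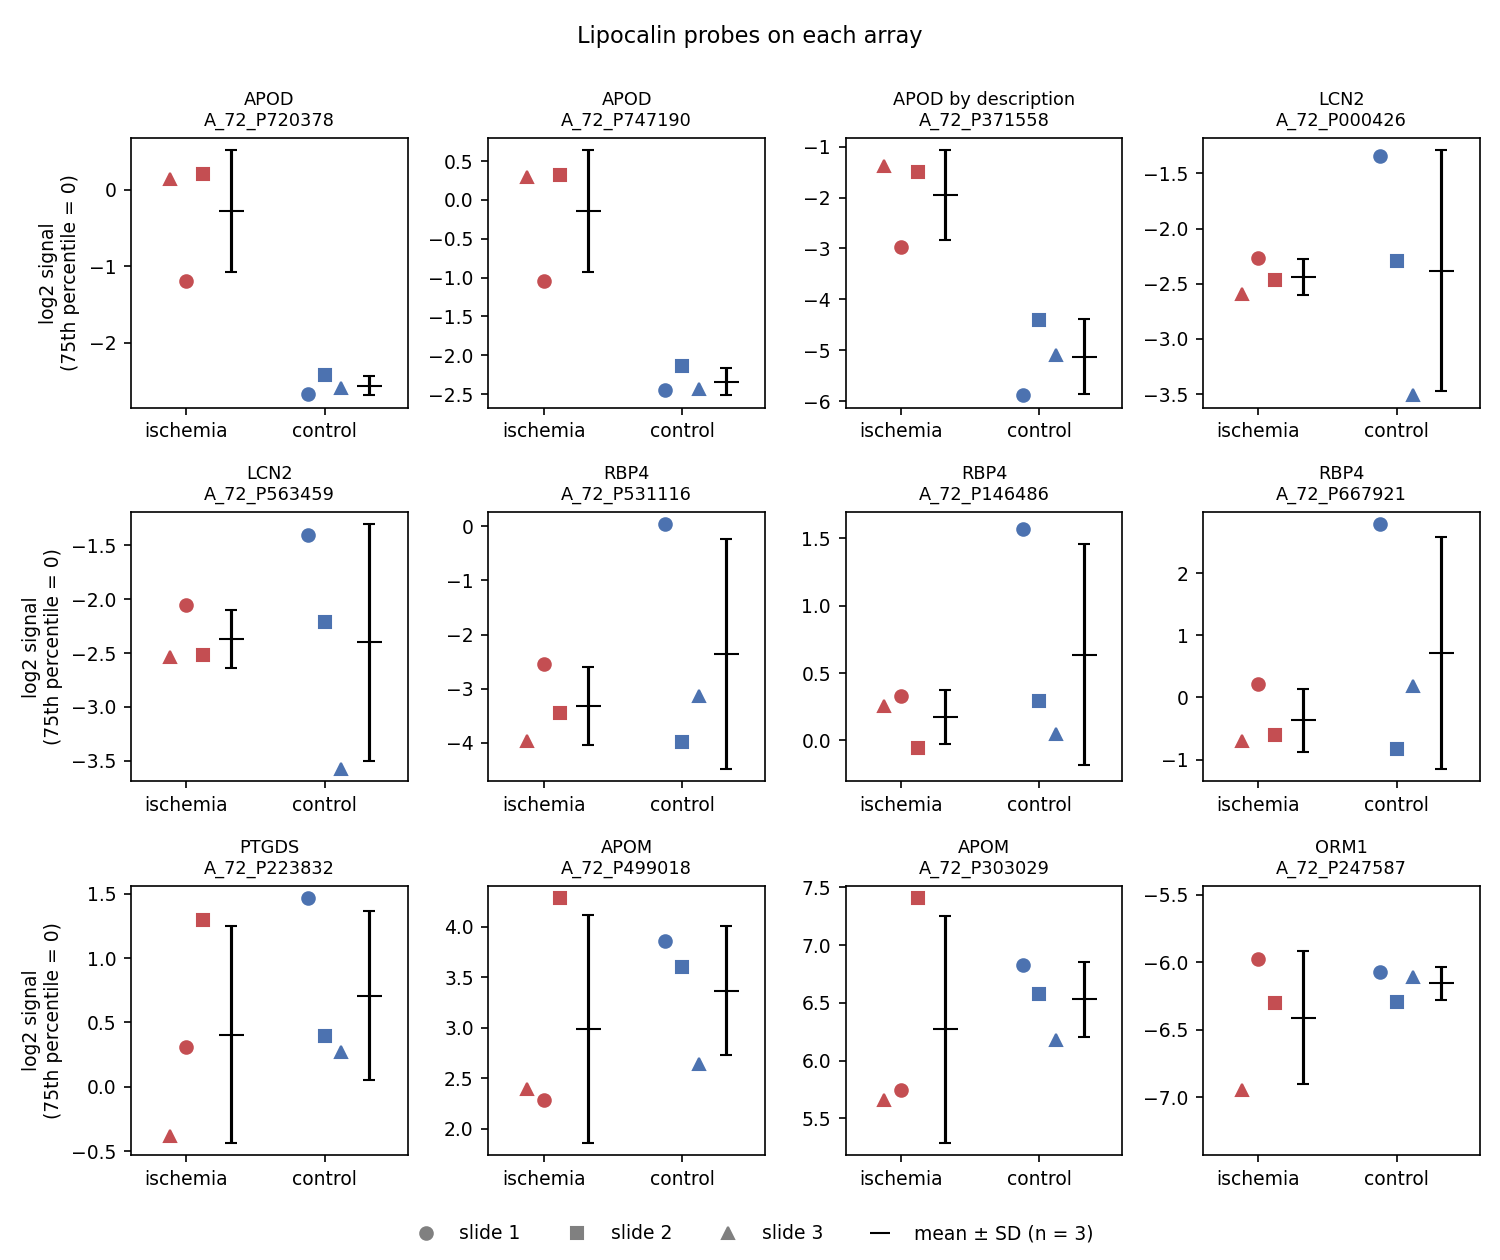
Level of each lipocalin probe on each array, as log2 signal relative to the 75th percentile of the array (vertical axes, each panel on its own scale), for 3 ischemia kidneys (red, left) and 3 control kidneys (blue, right). Symbols mark the slide and bars the mean ± SD (n = 3). The APOD panels are the ones in which the groups do not overlap, with A_72_P747190 at -1.04 to 0.31 in ischemia and -2.45 to -2.14 in control kidneys.

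APOD is made in many tissues by fibroblasts and cells around vessels, so markers of these cells are given beside it. Of the 7 fibroblast and perivascular markers tested, 3 had a higher and 4 a lower mean in ischemia kidneys, and their median difference was -0.17. Their summed level was 65.7 to 122.6 in ischemia and 85.9 to 97.1 in control kidneys, and THY1 was well above background on 0 of 6 arrays. DCN differed by 0.31 ± 0.22 and COL3A1 by 0.33 ± 0.25, while COL1A2, a fibrillar collagen chain, differed by -1.64 ± 0.30. Macrophage markers, like APOD, were higher in ischemia kidneys in sum. Their summed level was 18.1 to 23.7 in ischemia and 12.5 to 14.5 in control kidneys, with 5 of 6 higher, among them the scavenger receptor CD163 at 1.42 ± 0.32. No fibroblast or macrophage marker passed the adjusted p. The part of either cell type in the APOD signal was not tested.

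The genes most like APOD over the arrays were FBN1, KHDRBS3, PRPF39, MED23 and KCNMB4, out of 4118 genes ranked. FBN1, which encodes the microfibril protein fibrillin-1, had a Pearson correlation of 0.997 with A_72_P747190 over 6 arrays, and 0.98 after each group was centred on its mean. FBN1 read -2.15, -2.52 and -2.20 in ischemia kidneys, against -2.92, -2.79 and -2.86 in control kidneys, a difference of 0.57 ± 0.20. Thus FBN1 shared the low value of ischemia kidney 2 but spanned a much narrower range. The other 4 genes correlated at 0.963 to 0.979, with differences of 0.75 to 1.37. MED23 was well above background on 3 ischemia and 1 control arrays, and KCNMB4 on 2 ischemia and 1 control arrays. Over the alternatives the lowest differences were 0.53 for KHDRBS3, 0.61 for PRPF39, 0.37 for MED23 and 0.31 for KCNMB4. With normexp and quantile the difference of FBN1 was 0.23. All 5 correlations rest on the same 6 arrays in 2 separate groups and were picked as the highest of many.

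LCN2 did not separate the groups. Lipocalin-2 binds bacterial siderophores and so withholds iron, and it is stored in neutrophil granules as well as made by injured distal tubule and collecting duct cells. Probe A_72_P563459 read -2.54, -2.05 and -2.51 in ischemia kidneys, against -1.41, -2.22 and -3.58 in control kidneys. The ischemia kidneys lay close together inside the range of the control kidneys, whose highest and lowest arrays were kidneys 1 and 3. The difference was 0.03 ± 0.52. The twin probe A_72_P000426 read -2.59, -2.26 and -2.46 in ischemia kidneys, against -1.34, -2.29 and -3.51 in control kidneys, a difference of -0.06 ± 0.50.

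Both LCN2 spots gave the same order of the control arrays, and the gap between them was at most 0.21 on any array. The group differences from the pair of spots were 0.09 apart, against a median of 0.04 over the 138 pairs of tested probes that carry one sequence and a 90th percentile of 0.33 over the 17 pairs near LCN2 in level. The spot signals of both LCN2 probes were low, 51.5 to 72.2 in ischemia and 22.4 to 101.5 in control kidneys before scaling, yet well above background on all arrays. Within slides 1, 2 and 3 the difference for A_72_P563459 was -0.65, -0.30 and 1.04, so it changed sign between slides. It was 0.53 without control kidney 1 and -0.56 without control kidney 3, so the sign of the mean difference rests on which control kidney is counted.

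ORM1 had 0 of 6 arrays well above background. It encodes orosomucoid or alpha-1-acid glycoprotein, a plasma lipocalin made mainly by the liver in the acute phase response. Its probe A_72_P247587 read -6.95, -5.98 and -6.30 in ischemia kidneys, against -6.07, -6.29 and -6.11 in control kidneys. These values carry no order and no fold is given. A probe described as the bovine form of this protein, A_72_P027731, likewise had 0 of 6 arrays well above background. ORM1 was the 1 member probe left out of the fit, so 10 of 11 were tested.

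RBP4 was high in 1 control kidney. It encodes the plasma carrier of retinol, which is filtered when not bound to transthyretin and reclaimed by the proximal tubule. Its brightest probe, A_72_P146486, read 0.25, 0.33 and -0.05 in ischemia kidneys, against 1.57, 0.30 and 0.05 in control kidneys. Control kidney 1 lay above all others, and the remaining 5 arrays lay close together. The difference was -0.46 ± 0.40, and without control kidney 1 it was 0.0047. The probe nearest the transcript's end, A_72_P667921, read -0.70, 0.22 and -0.61 in ischemia kidneys, against 2.78, -0.83 and 0.19 in control kidneys. Here too control kidney 1 stood far above the others, and the difference of -1.08 ± 0.85 was -0.04 without it. The first probe, A_72_P531116, read -3.96, -2.55 and -3.45 in ischemia kidneys, against 0.04, -3.99 and -3.14 in control kidneys, and was well above background on all 3 ischemia and on 2 control arrays. Its difference of -0.96 ± 0.98 was 0.25 without control kidney 1.

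All 3 RBP4 probes, which start at least 294 bases apart and share no run of 20 bases, thus put control kidney 1 highest. The distance between control kidney 1 and the rest was not the same on each probe, since it was smallest on the brightest. On slide 1, which holds this control kidney, the differences were -2.59, -1.24 and -2.57 for A_72_P531116, A_72_P146486 and A_72_P667921. On slide 2 they were 0.54, -0.35 and 0.22, and on slide 3 they were -0.82, 0.21 and -0.89, so no sign was kept over the slides. Control kidney 1 was also the array with the highest LCN2. The correlation of LCN2 with RBP4 over the 6 arrays was 0.761 for their brightest probes, a description in which control kidney 1 is the highest array of both genes.

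PTGDS and APOM overlapped between the groups and followed each other over the arrays. PTGDS makes prostaglandin D2 and, as lipocalin-type prostaglandin D synthase, is also secreted and found in urine. Its probe A_72_P223832 read -0.39, 0.31 and 1.30 in ischemia kidneys, against 1.47, 0.39 and 0.27 in control kidneys. The highest control array was above every ischemia array, but ischemia kidney 3 was above both other control arrays. The difference was -0.30 ± 0.49, and -1.16, 0.90 and -0.65 within slides 1, 2 and 3. APOM, made by hepatocytes and proximal tubule cells, carries sphingosine 1-phosphate in high-density lipoprotein. Its probe A_72_P303029 read 5.66, 5.75 and 7.41 in ischemia kidneys, against 6.83, 6.58 and 6.18 in control kidneys. Ischemia kidney 3 was the highest array and ischemia kidneys 1 and 2 the lowest, so the control kidneys lay between them. The difference was -0.26 ± 0.48, and -1.08, 0.83 and -0.52 within slides 1, 2 and 3.

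The other APOM probe, A_72_P499018, read 2.39, 2.28 and 4.28 in ischemia kidneys, against 3.86, 3.60 and 2.65 in control kidneys. It showed ischemia kidney 3 on top and ischemia kidneys 1 and 2 at the bottom once more, with a difference of -0.38 ± 0.58. Without ischemia kidney 3 the differences of the APOM probes were -0.83 for A_72_P303029 and -1.03 for A_72_P499018. Without ischemia kidney 1 they were 0.05 and -0.08, and without ischemia kidney 2 they were near 0 and -0.03, so the size of the difference rests on which ischemia kidneys are counted. PTGDS and APOM correlated at 0.866 over the 6 arrays with their brightest probes, and both were higher in ischemia on slide 2 and lower on slides 1 and 3. Differences along a transcript had a small median. For 844 transcripts with probes at least 200 bases apart, the difference of the probe nearer the start was subtracted from that nearer the end. The median was 0.05, with quartiles of -0.04 and 0.17, against 0.12 for APOM and -0.12 for RBP4. The RBP4 value compares its outer probes, at -0.96 and -1.08, and leaves out the middle probe at -0.46.

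**Figure D2:**
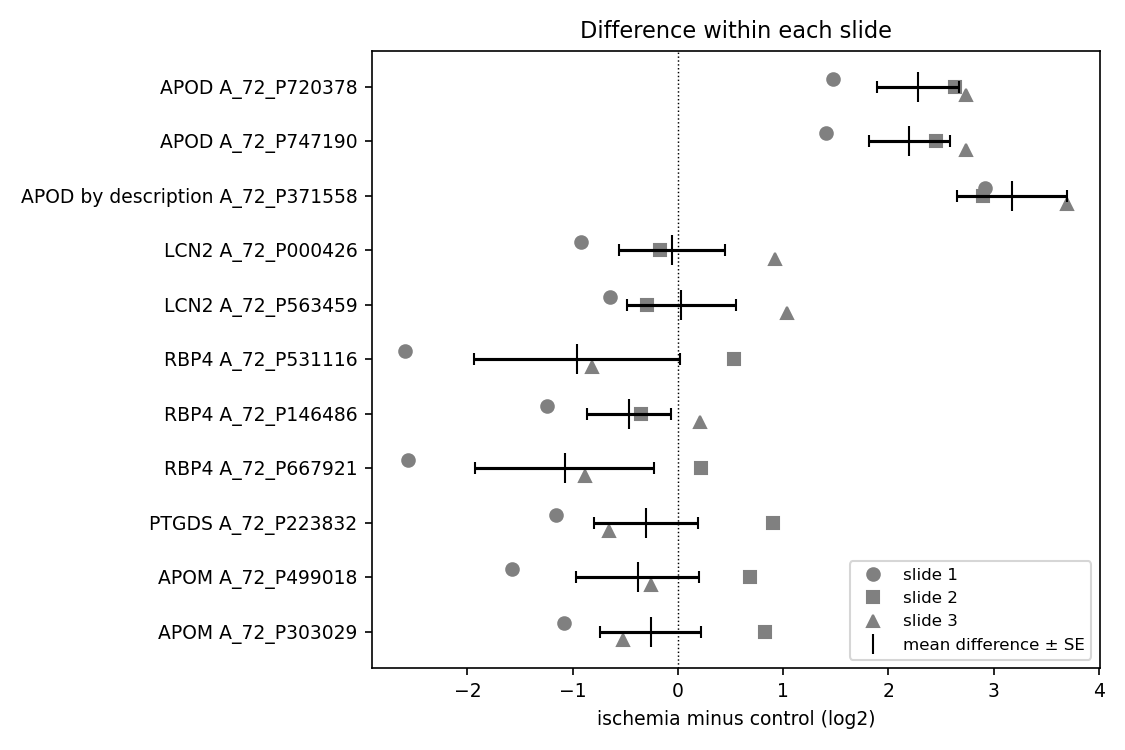
Ischemia minus control (log2, horizontal axis) within each of the 3 slides for the lipocalin probes that were tested and for the probe described as apolipoprotein D. The vertical tick and bar give the mean difference ± SE. The probe described as apolipoprotein D was not well above background in control kidneys, so its plotted values are plain differences and not the bound. APOD values lie right of 0 on every slide, at 1.40 to 2.74 for A_72_P747190, while every other lipocalin has slides on both sides of 0.

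Of the other lipocalins, 6 of 16 were found on the array and 4 were tested. AMBP, the precursor of alpha-1-microglobulin, which is also filtered and reclaimed, read -1.51, -2.05 and -1.76 in ischemia kidneys, against -0.47, -0.57 and -1.55 in control kidneys. The groups overlapped through control kidney 3, and the difference was -0.91 ± 0.33 (limma adjusted p = 0.745). SAL1, the salivary lipocalin of the pig, read 0.82, 1.26 and -0.48 in ischemia kidneys, against 0.33, -0.85 and -1.91 in control kidneys, a difference of 1.34 ± 0.64, or 0.79 without control kidney 3. C8G, the lipocalin subunit of complement C8, differed by 0.44 ± 0.24, and PAEP by 0.07 ± 0.22. None of the 4 passed, where 0% of the 4119 genes tested did. The intracellular lipid-binding proteins, which share the barrel fold, had 3 of 8 tested genes higher and 5 lower, with a median of -0.09. Among them RBP2, a cellular retinol carrier known from the intestine, differed by -1.13 ± 0.52 and FABP3, a fatty acid carrier, by -0.48 ± 0.32. These were -0.66 for RBP2 without ischemia kidney 2 and -0.16 for FABP3 without ischemia kidney 3. CRABP1, which binds retinoic acid, differed by 0.40 ± 0.26 on its brightest probe, but its 4 probes ranged from -1.03 to 0.40 and give no common direction.

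None of the receptors that take up lipocalins passed the adjusted p. Of 8 tested, 1 had a higher and 7 a lower mean in ischemia kidneys, with a median of -0.29, against 0.016 over all genes and 52.7% of genes higher. Cubilin (CUBN) differed by -0.38 ± 0.24, megalin (LRP2) by -0.23 ± 0.22, and their adaptor DAB2 by -0.30 ± 0.20. CUBN and LRP2 are also among the 11 proximal tubule markers, all lower on their brightest probes, with a median of -0.64. BSG, known as a receptor for APOD in other mammals, differed by -0.35 ± 0.30. SLC22A17, known as a receptor for LCN2, differed by -0.23 ± 0.30, and STRA6, the RBP4 receptor, by -0.29 ± 0.25. In the authors' deposited table, LRP2 was at 0.03 and SLC22A17 at 0.06, both above 0, and DAB2 was at -0.05. Leaving out 1 array brought the value nearest to 0, or past it, to -0.20 for CUBN, -0.08 for LRP2, -0.13 for BSG, 0.05 for SLC22A17 and -0.07 for STRA6.

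The partners of RBP4 in retinol transport were led by transthyretin, TTR, the protein that keeps RBP4 from being filtered. TTR read 3.49, 3.03 and 6.27 in ischemia kidneys, against 1.46, 2.03 and 1.59 in control kidneys. All ischemia arrays lay above all control arrays, and ischemia kidney 3 stood far above the rest. The difference was 2.57 ± 0.78 (limma adjusted p = 0.66), its 3 probes gave 2.57 to 2.65, and slides 1, 2 and 3 gave 1.57, 4.24 and 1.91. Without ischemia kidney 3 the difference was 1.57. Of the 9 genes of the retinoid list tested, none passed, 2 were higher and 1 lower on all ischemia arrays than on all control arrays. Over all genes these shares were 7.72% and 4.23%. The others were the retinol dehydrogenases RDH11, at 0.57 ± 0.22, and RDH10, at -0.43 ± 0.27, or -0.05 in the authors' deposited table. TTR is also made by hepatocytes, whose other markers were lower in mean in ischemia kidneys. SERPINC1 differed by -0.86 ± 0.27, while ALB was well above background on only 1 of 3 ischemia and 2 of 3 control arrays. The hepatocyte list, TTR included, summed to 19.8 to 97.9 in ischemia and 22.4 to 33.5 in control kidneys.

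The partners of APOM had 4 of 13 tested genes higher and 9 lower, none past the adjusted p, with a median of -0.12. The apolipoprotein APOA4 read -3.41, -4.73 and -1.57 in ischemia kidneys, against -1.34, -1.01 and -1.52 in control kidneys, and was well above background on 2 of 3 ischemia arrays. The groups did not overlap, though ischemia kidney 3 lay next to the control kidneys, and the difference of -1.95 ± 0.71 was -0.74 with normexp and quantile and -1.20 without ischemia kidney 2. APOA1, the main protein of high-density lipoprotein, differed by -0.79 ± 0.52, or -0.34 without ischemia kidney 2. The lipoprotein receptor SCARB1 differed by 0.53 ± 0.27 and the sphingosine 1-phosphate receptor S1PR3 by 0.44 ± 0.22. S1PR1 was not analysed here.

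Around PTGDS, 3 of 7 tested genes of prostaglandin handling were higher and 4 lower, none past the adjusted p. CBR1, a carbonyl reductase that acts on prostaglandins, read 4.69, 4.71 and 4.67 in ischemia kidneys, against 5.87, 5.77 and 4.81 in control kidneys. The ischemia kidneys were alike and lay below all control kidneys, with control kidney 3 close to them, and the difference was -0.79 ± 0.30. The prostaglandin transporter SLCO2A1 differed by -0.70 ± 0.29, and by -0.11 in the authors' deposited table. PTGIS read -5.25, -3.75 and -3.73 in ischemia kidneys, against -3.50, -3.50 and -2.94 in control kidneys. It was well above background on 1 of 3 ischemia and 3 of 3 control arrays. The PTGIS difference of -0.93 ± 0.43 ranged from -1.19 to -0.10 over the alternatives. The cyclooxygenases PTGS1 and PTGS2 differed by 0.35 ± 0.21 and 0.05 ± 0.48. HPGDS, the other prostaglandin D synthase, was not analysed here.

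Acute phase genes, which in the liver are made together with LCN2 and ORM1, had 6 of 12 tested genes higher and 6 lower, with a median of 0.25 and none past the adjusted p. Hemopexin, HPX, read 4.21, 4.66 and 2.33 in ischemia kidneys, against 2.55, 2.36 and 1.61 in control kidneys. Ischemia kidneys 1 and 2 were high and ischemia kidney 3 lay within the range of the control kidneys. The difference was 1.56 ± 0.60, and 2.11, -0.03 and 2.60 within slides 1, 2 and 3. Ceruloplasmin, CP, a copper carrier, and serum amyloid SAA3 likewise had ischemia kidneys 1 and 2 high and ischemia kidney 3 within the control range. Within slides 1, 2 and 3 the differences were 1.51, 0.11 and 1.72 for CP and 2.27, -0.30 and 2.98 for SAA3. The 5 CP probes tested ranged from 0.31 to 1.14, and the 3 SAA3 probes from 1.23 to 1.65. Haptoglobin, HP, which binds free hemoglobin, was higher in all ischemia kidneys, at 0.52 ± 0.22, and at 0.29 in the authors' deposited table. ITIH4 was well above background on 0 of 3 control arrays. By the bound used for dim control values, it was 2.25-fold higher in ischemia kidneys. Measured means of ITIH4 were -3.00 in ischemia and -4.23 in control kidneys (limma adjusted p = 0.778). Its plain difference of 1.23 ± 0.51 was 0.60 without ischemia kidney 1. In the authors' deposited table it was -0.02, below the bound.

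None of the inducers of LCN2 passed the adjusted p, with 8 of 15 tested genes higher, 7 lower and a median of 0.0075. IL1B, the cytokine interleukin-1 beta, was well above background on 0 of 3 control arrays. By the bound used for dim control values, it was 2.09-fold higher in ischemia kidneys. Measured means of IL1B were -3.04 in ischemia and -4.89 in control kidneys (limma adjusted p = 0.591). Its plain difference of 1.84 ± 0.48 was 0.54 with normexp and quantile. CEBPD, a transcription factor of the acute phase, read 3.78, 4.71 and 4.51 in ischemia kidneys, against 3.68, 3.03 and 3.41 in control kidneys. All ischemia values were above all control values, ischemia kidney 1 by little, and the difference was 0.96 ± 0.31 (limma adjusted p = 0.678). Its relative CEBPA differed by -0.60 ± 0.24 and NFKB2 by 0.33 ± 0.23. NFKBIZ was not analysed here. Of the genes of neutrophils, which store LCN2, 2 were tested and gave no common picture. ELANE, well above background on all arrays, differed by -0.06 ± 0.23. S100A12 was well above background on 2 of 3 ischemia and 1 of 3 control arrays, so no fold is given. It read 2.29, 2.95 and -5.19 in ischemia kidneys, against -4.56, -5.95 and -3.66 in control kidneys. The neutrophil genes MPO and CAMP were well above background on 0 of 6 arrays, and the list summed to 1.99 to 10.08 in ischemia and 2.06 to 2.71 in control kidneys.

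At an unadjusted p under 0.05, 3.79% of the 4119 genes tested were higher and 2.89% lower in ischemia kidneys. On that scale 5 of the 12 acute phase genes, 2 of the 15 inducers of LCN2 and 2 of the 9 retinoid genes were higher. ITIH4 and IL1B are among them, and were well above background on 3 ischemia and 0 control arrays. Both entered the fit only through the group in which they are high, so their direction is not read against these shares. Lower were 2 of the 7 prostaglandin genes tested and 1 gene each of the inducers, the APOM partners and the other lipocalins. The receptors and the intracellular lipid-binding proteins had 0 in either direction. Of the 5 acute phase genes, HPX, CP and SAA3 were near or below 0 on slide 2, as given above.

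**Figure D3:**
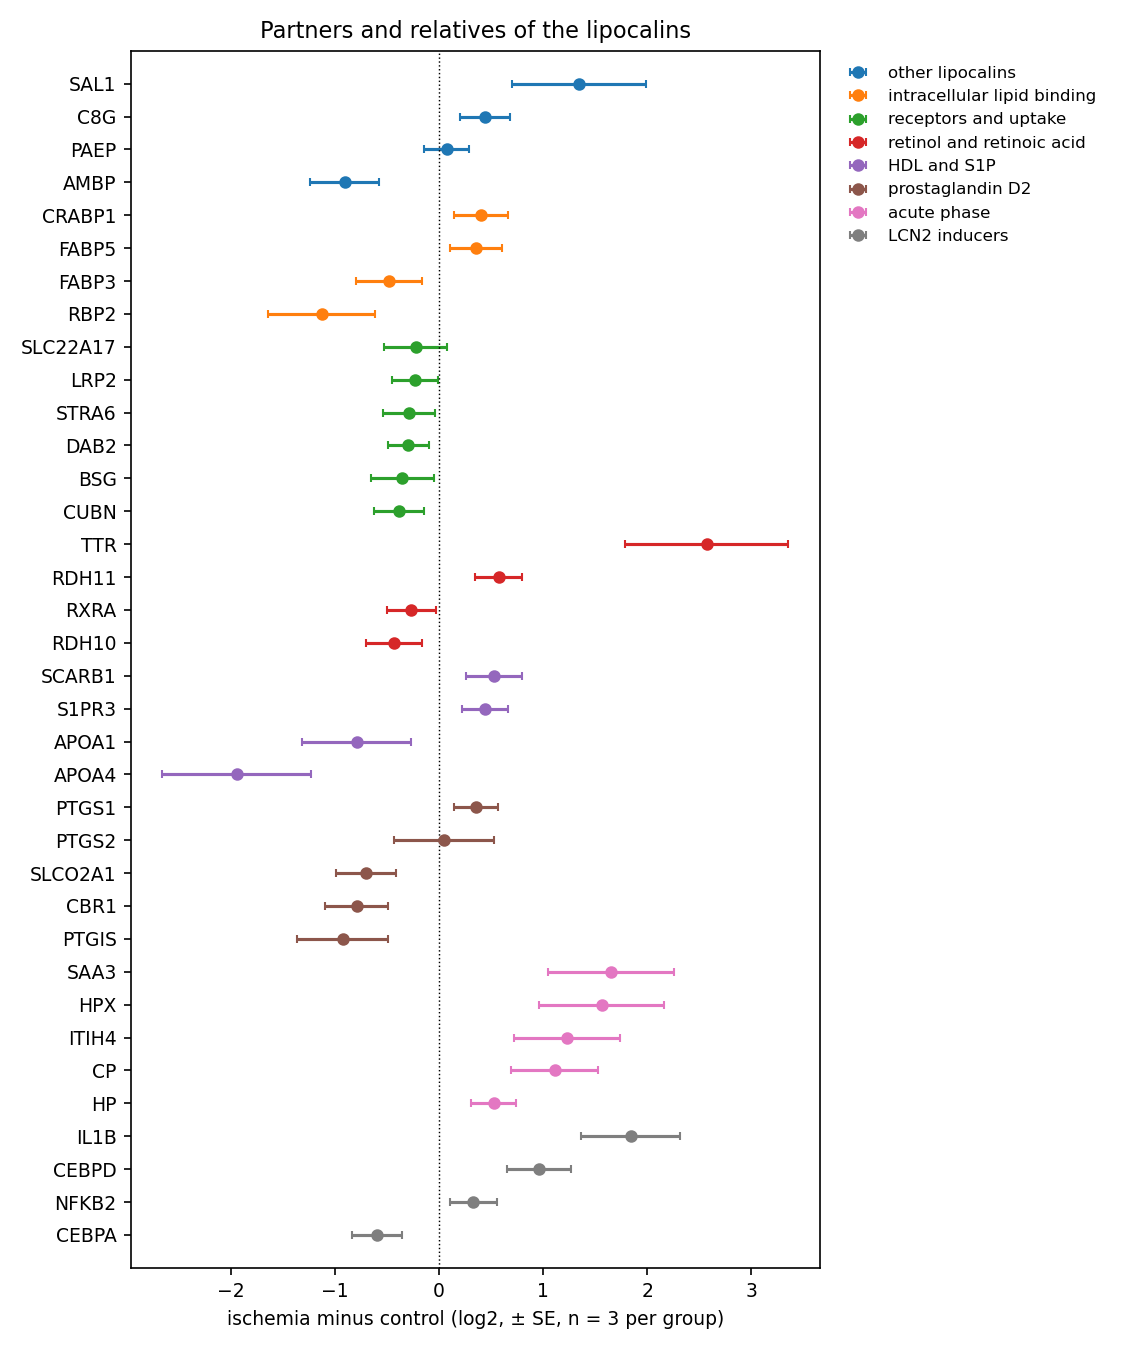
Ischemia minus control (log2 ± SE, n = 3 per group) for relatives and partners of the lipocalins, coloured by group. TTR has the highest value at 2.57 and APOA4 the lowest at -1.95. IL1B and ITIH4 were not well above background in control kidneys, so their plotted values are plain differences and not the bounds given in the text.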

How the data were processed

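Cy3-labelled RNA of each kidney was hybridised to 1 array. Per the file headers, the deposited spot intensity had been background-subtracted and detrended within each array by Agilent Feature Extraction 10.10.1.1, with no scaling between arrays, and other deposited columns hold its flags for background, outliers and saturation. The submitters' processing notes name version 11.5.1.1, R 2.15.2 and limma. The authors' deposited table is on the log2 scale (column medians 5.91 to 5.99), with its normalization not given in the sources used here.

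Each level is the log2 processed signal of a probe after subtraction of its array's 75th percentile, with control and outlier spots left out. Probes well above background on at least 3 of 6 arrays, with values on at least 5, were tested with limma 3.58.1 in R 4.3.3 (two-sided, Benjamini-Hochberg over 25013 probes). A gene is its brightest probe. Symbols came from the design, accessions and descriptions, naming 12065 probes. A bound sets the ischemia mean against a control mean, without spread. That control mean averages, over control arrays, the array's lowest signal well above background, or the probe itself where that is higher. Bounds hold for this processing only, and some alternatives gave smaller differences for the same probes. Summed levels add unlogged values of a list's probes. The p-values measure the spread between these kidneys only, and the number of arrays limits precision. That spread includes any between slides, since the main fit leaves slide out.

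The members and lists were chosen with earlier results of these data known. The text names the 6 genes with every probe, up to 4 genes of each list by smallest unadjusted p, preset partners, and the 5 genes most correlated with APOD. Marker genes, the bovine-described probe and A_72_P371558 were named beside them after their values were seen. Same-numbered samples came from different pigs and did not deviate together (correlations of -0.35, -0.17 and -0.05), so the numbers do not pair them. For the arrays sharing slides 1, 2 and 3, these correlations were 0.34, 0.10 and 0.33. Slide, background correction, scaling, filters, weights and left-out arrays were tried as alternatives.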

Additional observations from a re-analysis of the deposited data

How the results depend on the processing

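The sign of the APOD difference was kept on both probes under every alternative run. For A_72_P747190 it was 1.497 with normexp and quantile normalization together and 1.82 in the authors' deposited table, against 2.20. LCN2, RBP4 and PTGDS, and the brightest APOM probe, each took the other sign under at least 1 alternative, in 16 of 184 values over the lipocalin differences. The count of probes past the limma adjusted p of 0.05 over the whole array, 1 as reported, was 11 with median centring, 0 with quantile normalization, 3 with normexp and quantile normalization together, 3 in the deposited table, 0 without a filter on dim probes, 3 with probes well above background on all 6 arrays, 3 with a variance trend and 21 with array weights. With slide as a block it was 0 (912 higher and 1407 lower at an unadjusted p under 0.05), and with the sample number as a replicate block it was 0 (535 higher and 675 lower), though the numbers do not pair the kidneys. Leaving out 1 array at a time gave 0 to 1. At an unadjusted p under 0.05, 748 probes were higher and 826 lower as reported, against 979 and 703 with quantile normalization, 788 and 1282 without a filter, 971 and 492 with median centring and 2394 and 237 in the deposited table. They were 1908 and 2787 with array weights, 745 and 2193 without control kidney 1 and 365 and 435 without control kidney 2. The median difference of all probes was -0.04 as reported, 0.11 with median centring, 0.14 in the deposited table and -0.11 without a filter, and the causes were not tested. The deposited table holds 1 probe of each lipocalin, and ORM1 lies at background on every array.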

Other observations

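The ischemia kidneys differed among themselves in genes beyond the lipocalins. On slides 1 and 3 the fibrinogen chain FGG differed by 2.02 and 4.95 between ischemia and control, and by -0.76 on slide 2. HPX, CP and SAA3 were likewise lowest on slide 2. TTR had its largest value on slide 2, and PTGDS and APOM were higher in ischemia on that slide alone. APOD had another order, and its lowest ischemia value was that of kidney 2 on slide 1. These are values of single pairs of kidneys, were noticed after the data were seen and were not tested.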
